A study of Mus musculus with 10 samples.

Results

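Cholecystokinin (CCK) and its receptors are encoded by 3 genes in the mouse, *Cck* for the peptide, *Cckar* for the CCK1 receptor and *Cckbr* for the CCK2 receptor. They are described here in embryonic dorsal root ganglia (DRG), as 3 of the 55414 gene identifiers counted in each library. *Cckar* was chosen by its lower level in *WD1* cKO embryos in this same comparison, whereas *Cck* and *Cckbr* were added by name as its ligand and its sister receptor. The level of *Cckar* is therefore given as a description without a test. Of the 3 genes, 2 (*Cck* and *Cckar*) had at least 10 counts in at least 5 libraries and entered the test across 17490 genes, and *Cckbr* did not.

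The DRG of 5 control and 5 *WD1* cKO mouse embryos were collected at E18.5 and analysed by bulk RNA-sequencing, to ask how early loss of the transcription factor Dach1 changes the sensory neuron transcriptome. *WD1* cKO embryos are *Wnt1* Cre/+; *Dach1* flox/flox. Cre under the control of *Wnt1* removes the floxed exon 2 of *Dach1* from the neural crest, the source of both neurons and glia of the ganglion. Controls were littermates, and the genotype written for one group in the labels appears under the title of the other, so that the titles were followed and the controls are taken as *Dach1* flox/flox without Cre. The floxed line was kept on a mixed C57Bl/6J and CD1 background. Litters and sexes are not given in the sources used here, so p-values measure the spread between these libraries only.

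CCK is made as a precursor that is cut, sulfated and amidated on its way into dense core vesicles, and it serves both as a gut hormone and as a neuropeptide. The CCK1 receptor prefers the sulfated peptide, whereas the CCK2 receptor binds CCK and the related stomach hormone gastrin alike, and both act through Gq, phospholipase C and calcium release. *Cckar* is best known from vagal sensory neurons, where CCK from the gut signals satiety, and in the DRG of adult rodents CCK and the CCK2 receptor are known for their rise after nerve injury.

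CCK and gastrin share residues at their C-terminal end. The stretches of mRNA that encode this end are shown because they set the ligand counted here apart from gastrin, the other peptide that can bind the CCK2 receptor. Each covers the last 8 codons of the peptide and the 3 codons after it, which carry the signal for amidation and cleavage, and the capitals mark the 12 bases that encode the last 4 residues, which are the same in both peptides.
Cck: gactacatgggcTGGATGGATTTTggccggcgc
Gast: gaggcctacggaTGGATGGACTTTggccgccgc
The sequences were read 5′ to 3′ from GENCODE transcripts of GRCm38, at bases 385 to 417 of Cck-201 (691 bases) and at bases 310 to 342 of Gast-201 (460 bases), and the *Cck* stretch is present in 4 of the 6 annotated *Cck* transcripts. Of the 33 bases, 24 are alike between the 2 genes, including 11 of the 12 in capitals. The longest run of bases that any transcripts of *Cck* and *Gast* share is 12, and the longest shared by *Cckar* and *Cckbr* is 13.

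The libraries held between 19757596 and 34796562 counts. The targeted gene *Dach1*, counted over all of its exons, fell from 37.9 ± 2.40 to 20.0 ± 0.676 CPM (counts per 1000000, scaled by TMM; SD, n = 5 per group) in *WD1* cKO embryos, a log2 change of -0.92 with a standard error of 0.050 and an adjusted p of 5.48e-06 in edgeR's quasi-likelihood test. Markers of DRG sensory neurons were abundant in all 10 libraries, with a summed level of 5370 to 5646 CPM over 10 genes in control and 5271 to 5547 CPM in *WD1* cKO embryos. Some libraries stood apart in markers of neighbouring tissue. In control replicate 3, 10 spinal cord genes summed to 27.6 CPM against 1.37 to 3.14 CPM in the other 9 libraries, with 7.71 CPM of *Gad1*, 4.65 CPM of the glycine transporter gene *Slc6a5* and 3.81 CPM of *Pax2*, although the motor neuron gene *Mnx1* was at 0 there. In control replicate 5, genes of placodal and sympathetic neurons summed to 117 CPM against 19.0 to 41.2 CPM elsewhere. Red blood cell genes summed to 509 to 2468 CPM in replicates 1 to 3 of both groups and to 155 to 243 CPM in replicates 4 and 5.

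*Cck*, the ligand (ENSMUSG00000032532, chromosome 9), was detected in every library. The counts of control replicates 1 to 5 were 64, 80, 103, 77 and 57, which is 3.12, 3.52, 4.84, 2.83 and 2.50 CPM. Those of the *WD1* cKO libraries were 108, 119, 140, 87 and 217 in the same order, which is 4.54, 4.52, 4.63, 4.42 and 6.26 CPM. All 5 *WD1* cKO libraries lay above the control median, and only control replicate 3 reached into their range. That library also held the most spinal cord transcripts, and whether these bear on its *Cck* level was not tested. *WD1* cKO replicate 5 was the highest of the 10 libraries, and the other 4 *WD1* cKO libraries were close to each other. In bulk ganglia, a change in the number of cells that express a gene and a change in its RNA per cell cannot be told apart.

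The mean level of *Cck* was 3.36 ± 0.908 CPM in control and 4.87 ± 0.777 CPM in *WD1* cKO embryos (SD, n = 5 per group), which is 1.46-fold higher in *WD1* cKO (95% interval 1.11 to 1.91). The log2 fold change was 0.54 (standard error 0.17). An exact two-sided permutation test of the mean log2 CPM over the 252 ways to assign the libraries to the groups gave p = 0.0397, where the smallest p it can give is 0.00794. In edgeR's quasi-likelihood test the unadjusted p was 0.00758 and the adjusted p over all genes tested was 1.00, so *Cck* was not called at an adjusted p under 0.05, a threshold that 0.0400% of the genes tested passed. An unadjusted p under 0.05 with a higher level in *WD1* cKO was found for 2.12% of the genes tested.

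**Figure D1:**
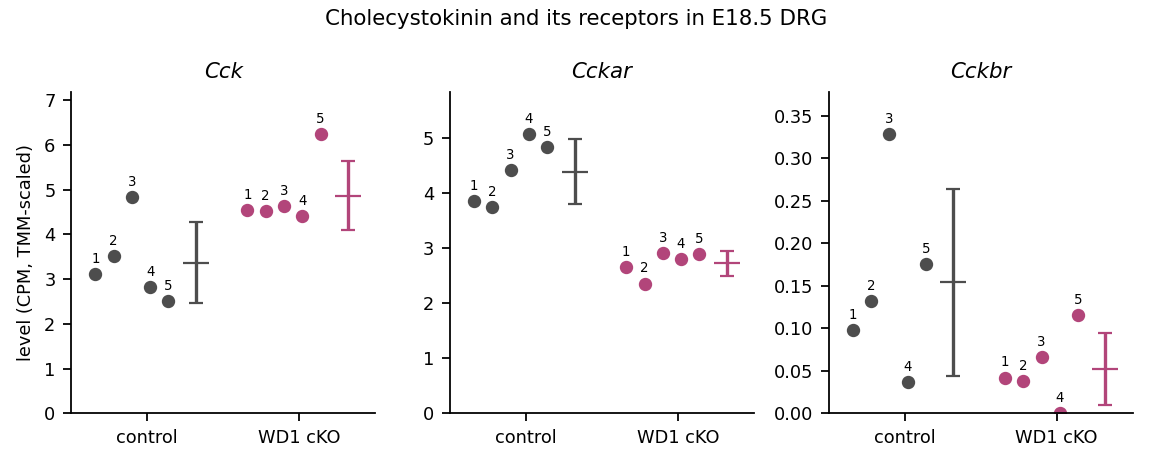
Levels of *Cck*, *Cckar* and *Cckbr* in each library, in TMM-scaled CPM on linear axes that differ between the 3 panels. Points are libraries numbered by replicate, horizontal bars are group means and vertical bars are 1 SD (n = 5 per group). The *Cckar* points of the 2 groups do not overlap, control replicate 3 lies within the *WD1* cKO range for *Cck*, and no *Cckbr* point lies above 0.329 CPM.

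The difference in *Cck* was larger when control replicate 3 was left out. The 4 remaining controls were at 2.99 ± 0.433 CPM (SD, n = 4) and reached at most 3.52 CPM, below the lowest *WD1* cKO library at 4.42 CPM. As it was the only control within the *WD1* cKO range, leaving it out separates the groups by construction. Without this library, groups that do not overlap with *WD1* cKO higher were seen for 0.915% of the genes tested. The log2 fold change was then 0.71 (standard error 0.14, adjusted p = 0.414 in edgeR's quasi-likelihood test), and leaving out *WD1* cKO replicate 5 instead lowered it to 0.43 (adjusted p = 1.00). Leaving out both libraries numbered 3, the pair with the most spinal cord transcripts in each group, gave 0.73 on the same scale (adjusted p = 0.720 in edgeR's test).

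The size of the difference also varied with the replicate numbers. In replicates 1 to 3, which held more red blood cell transcripts, *Cck* was at 3.83 ± 0.902 CPM in control and 4.56 ± 0.0599 CPM in *WD1* cKO embryos (SD, n = 3 per group), a difference of 0.28 in mean log2 CPM. In replicates 4 and 5 it was at 2.67 ± 0.230 and 5.34 ± 1.30 CPM (SD, n = 2 per group), a difference of 0.97 in mean log2 CPM. The direction was thus the same within both sets of numbers. Whether the difference itself depended on the replicate numbers was not tested.

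**Figure D2:**
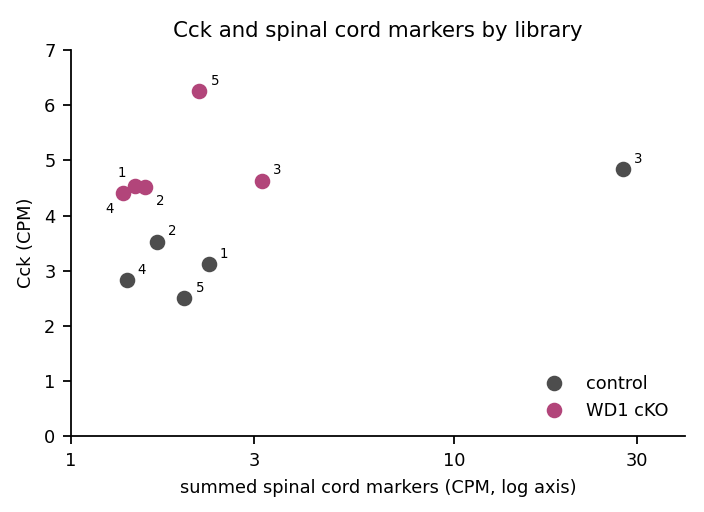
Level of *Cck* (CPM, linear axis from 0) against the summed level of 10 spinal cord marker genes (CPM, log axis) in the 10 libraries, numbered by replicate and coloured by group. Control replicate 3 lies far to the right at 27.6 CPM of spinal cord markers and has the highest *Cck* of the controls, whereas the *WD1* cKO libraries lie above the other 4 controls at spinal cord levels of 1.37 to 3.14 CPM.

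*Cckar*, the receptor with which the comparison began (ENSMUSG00000029193, chromosome 5), was lower in every *WD1* cKO library than in any control. Its counts in control replicates 1 to 5 were 79, 85, 94, 138 and 110, which is 3.85, 3.74, 4.42, 5.07 and 4.83 CPM. In the *WD1* cKO libraries, in the same order, they were 63, 62, 88, 55 and 100, which is 2.65, 2.35, 2.91, 2.79 and 2.88 CPM. The highest *WD1* cKO library, replicate 3, lay below the lowest control, replicate 2. The *WD1* cKO libraries were also closer to each other than the controls were.

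The mean level of *Cckar* was 4.38 ± 0.586 CPM in control and 2.72 ± 0.228 CPM in *WD1* cKO embryos (SD, n = 5 per group). The log2 fold change was -0.69 (standard error 0.11), a *WD1* cKO level of 0.620 times that of the control. *Cckar* was selected on these values. Over all genes tested, groups that do not overlap with *WD1* cKO lower were found for 0.566%. The cut-off of the study is an unadjusted p under 0.005 with a log2 fold change beyond 0.15. In edgeR's quasi-likelihood test, 31 genes (0.177%) were lower past it. The study used DESeq2 and reported its own counts, which differ from these.

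As the *Cckar* groups did not overlap, a lower level in *WD1* cKO embryos was fixed in advance within any set of libraries. Only its size could vary. In replicates 1 to 3 the level was 4.00 ± 0.363 CPM in control and 2.64 ± 0.279 CPM in *WD1* cKO embryos (SD, n = 3 per group). In replicates 4 and 5 it was 4.95 ± 0.169 CPM against 2.84 ± 0.0647 CPM (SD, n = 2 per group). The differences in mean log2 CPM were -0.60 and -0.79. Without control replicate 3 the log2 fold change was -0.69, and over all 10 leave-one-out fits it lay between -0.74 and -0.63.

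*Cckar* is also expressed by vagal neurons of placodal origin, so its level is given beside neuron markers. The placodal and sympathetic markers were highest in control replicate 5, at 117 CPM, where *Cckar* was at 4.83 CPM. They were lowest among the controls in replicate 4, at 20.6 CPM, which had the highest *Cckar*, 5.07 CPM. Without control replicate 5 the log2 fold change of *Cckar* was -0.65. *Dbh* (53.1 CPM) and *Th* (46.2 CPM) made up most of the sum in control replicate 5, and *Th* (20.1 CPM) most of that in control replicate 4. The paper names *Th* as a marker of a somatosensory subpopulation, so the sum does not measure placodal neurons alone. Of the 10 sensory neuron markers, 9 had a log2 fold change below 0, with a median of -0.096, and 0 had an adjusted p under 0.05 in edgeR's quasi-likelihood test, while *Ntrk2* (-0.18) and *Prrxl1* (-0.11, also known as *Drgx*) were among those lower at an unadjusted p under 0.05, as were 2.38% of the genes tested. Their part in the result was not tested.

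*Cckbr*, the receptor shared with gastrin (ENSMUSG00000030898, chromosome 7), was close to the limit of detection in all libraries. Control replicates 1 to 5 held 2, 3, 7, 1 and 4 counts, and the *WD1* cKO libraries, in the same order, held 1, 1, 2, 0 and 4. A count of 3, about the one-sided 95% upper limit for a count of 0, corresponds to 0.0865 to 0.152 CPM in these libraries. The largest count again fell in control replicate 3, and the groups overlapped.

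The controls together held 17 counts of *Cckbr* (95% exact Poisson interval 9.90 to 27.2) and the *WD1* cKO libraries 8 counts (3.45 to 15.8). Relative to the total counts, the *WD1* cKO sum was 0.401 times that of the control, with a 95% interval that reached 0.982 at its upper bound and covers counting error only. The mean level was 0.154 ± 0.110 CPM in control and 0.0523 ± 0.0424 CPM in *WD1* cKO embryos (SD, n = 5 per group). The difference in mean log2 CPM was -1.02, with p = 0.0794 in the exact two-sided permutation test. Without control replicate 3 it was -0.74 (exact permutation p = 0.159). Leaving out control replicate 4 or *WD1* cKO replicate 5 instead gave -1.31 (exact permutation p = 0.0238) and -1.24 (exact permutation p = 0.0476). With all libraries the permutation p was thus not under 0.05, and with 1 library left out it depended on which one.

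*Gast*, which encodes gastrin (ENSMUSG00000017165, chromosome 11), was counted between 0 and 3 times in control and between 0 and 5 times in *WD1* cKO libraries. The sums were 8 and 11 counts, and the exact permutation p was 0.841. *Cck* was the only ligand gene of the pair counted more than 5 times in a library.

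Levels of different genes were compared per length of their annotated exons, as TPM, transcripts per 1000000. *Cck* had the highest TPM of the 3 genes in each of the 10 libraries, followed by *Cckar* and then *Cckbr*. In CPM, without length, the first 2 changed places in 4 of the 5 controls, with a mean control ratio of *Cckar* to *Cck* of 1.39 in place of 0.491 in TPM. *Cck* was at 10.9 ± 3.05 TPM in control and 15.8 ± 2.28 TPM in *WD1* cKO embryos, *Cckar* at 5.02 ± 0.631 and 3.14 ± 0.260 TPM, and *Cckbr* at 0.228 ± 0.164 and 0.0772 ± 0.0616 TPM (SD, n = 5 per group). The ranges of neighbours in this order did not overlap in either group. Among all genes with a length, many of them without a count, *Cck* lay at percentile 77.4 to 83.8 and *Cckar* at percentile 71.4 to 75.4. A library held a count for 26575 to 28734 identifiers. By TPM, *Cck* ranked 8421 to 11762 from the top and *Cckar* 12808 to 14898, so *Cckar* lay near the middle of the genes with a count. *Cckar* made up 95.7 ± 2.85% of the TPM of both receptors in control and 97.6 ± 1.76% in *WD1* cKO embryos (SD, n = 5 per group). These shares rest on *Cckbr* counts of 0 to 7 per library and are limited by counting error.

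With *Cck* higher and *Cckar* lower, the amount of ligand transcript per receptor transcript differed between the groups. The ratio of *Cck* to *Cckar* in TPM was 2.29, 2.66, 3.09, 1.57 and 1.46 in control replicates 1 to 5. It was 4.84, 5.42, 4.49, 4.46 and 6.12 in *WD1* cKO replicates 1 to 5. The groups did not overlap, with means of 2.21 ± 0.697 and 5.07 ± 0.705 (SD, n = 5 per group), and control replicate 3 was the closest to the *WD1* cKO libraries. The ratio contains *Cckar*, the gene chosen for its lower level, and *Cck* was not called at an adjusted p under 0.05. Separation of the groups thus follows in part from the choice of *Cckar*, and the ratio is given without a test.

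**Figure D3:**
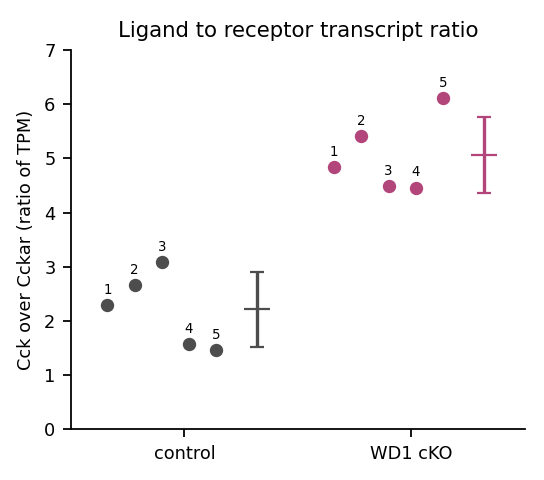
Ratio of *Cck* to *Cckar* transcripts in each library (TPM over TPM, linear axis from 0). Points are libraries numbered by replicate, horizontal bars are group means and vertical bars are 1 SD (n = 5 per group). The controls lie between 1.46 and 3.09 and the *WD1* cKO libraries between 4.46 and 6.12.

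The genes that make, store and break down CCK were examined next, followed by those that carry its signal. Over all 17490 genes tested, 8719 had a log2 fold change below 0 and 8771 above 0, the median was close to 0, and 4.50% had an unadjusted p under 0.05 in edgeR's quasi-likelihood test. Of the 61 genes tested from 7 lists of this pathway, 0 had an adjusted p under 0.05. Because the lists were chosen with earlier results of these data known, their share of genes past a threshold is a description only. An unadjusted p under 0.05 was found for 3 (4.92%), a share near that of all genes. These 3, *Mme*, *Cadps2* and *Tacr3*, were all higher in *WD1* cKO embryos and past the study's cut-off, as were 0.206% of the genes tested. The medians given for the lists are close to 0, and those of the maturation, vesicle, Gq and gut peptide receptor lists changed sign when single libraries were left out.

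The 11 genes listed for CCK maturation were all tested, and 0 had an unadjusted p under 0.05. Of these, 7 had a log2 fold change below 0 and 4 above 0, with a median of -0.016. The values ranged from -0.07 for *Pcsk5*, a proprotein convertase, to 0.33 (standard error 0.28, and 0.12 without control replicate 2) for *Scg5*, which encodes the helper protein of the convertase Pcsk2. *Pam*, the amidating enzyme, was at 125 ± 4.12 CPM in control and 124 ± 3.90 CPM in *WD1* cKO embryos, and *Tpst1*, a sulfating enzyme, at 41.3 ± 1.77 and 41.1 ± 2.96 CPM (SD, n = 5 per group).

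Of the 9 genes of dense core vesicles, 7 had a log2 fold change below 0 and 2 above 0, with a median of -0.050 and a range from -0.08 for *Ptprn*, which encodes a vesicle membrane protein, to 0.40 for *Cadps2*. *Cadps2*, which encodes a factor that primes peptide vesicles for release, was at 12.5, 13.5, 11.3, 14.4 and 13.5 CPM in control replicates 1 to 5. In *WD1* cKO replicates 1 to 5 it was at 17.4, 17.4, 16.0, 15.0 and 20.4 CPM. The groups did not overlap, which was the case with *WD1* cKO higher for 0.497% of the genes tested. The fold change of 0.40 on the log2 scale had a standard error of 0.089, an unadjusted p of 0.000642 and an adjusted p of 0.561 in edgeR's quasi-likelihood test.

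The 4 peptidases known to cleave CCK had a median log2 fold change of 0.090, from -0.02 for *Tpp2*, which encodes tripeptidyl peptidase II, to 0.50 for *Mme*, which encodes neprilysin, an enzyme of the cell surface that cleaves many neuropeptides. *Mme* was at 39.4, 39.6, 29.8, 37.5 and 33.6 CPM in control replicates 1 to 5 and at 51.1, 46.5, 47.2, 55.2 and 54.7 CPM in *WD1* cKO replicates 1 to 5. All 5 *WD1* cKO libraries lay above every control, and control replicate 3 was the lowest. The log2 value of 0.50 had a standard error of 0.081, an unadjusted p of 4.3e-05 and an adjusted p of 0.0807 in edgeR's quasi-likelihood test, which missed the threshold.

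The genes that carry the signal from the receptors into the cell followed. Of 15 genes of Gq signalling, 8 had a log2 fold change below 0 and 7 above 0, with values from -0.14 for *Prkcb*, a protein kinase C gene, to 0.14 for *Plcb2*, a phospholipase C gene (-0.009 without *WD1* cKO replicate 2), and 0 had an unadjusted p under 0.05. *Gnaq*, which encodes the G protein subunit that gives the route its name, was at 350 ± 20.1 CPM in control and 348 ± 3.65 CPM in *WD1* cKO embryos (SD, n = 5 per group). The 9 genes of receptor desensitisation all had a log2 fold change below 0, between -0.10 for the kinase gene *Grk3* and -0.003 for *Rgs4*, which encodes a regulator of G protein signalling and was at 0.05 without control replicate 5. Their median was -0.029, and 0 of the 9 had an unadjusted p under 0.05.

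**Figure D4:**
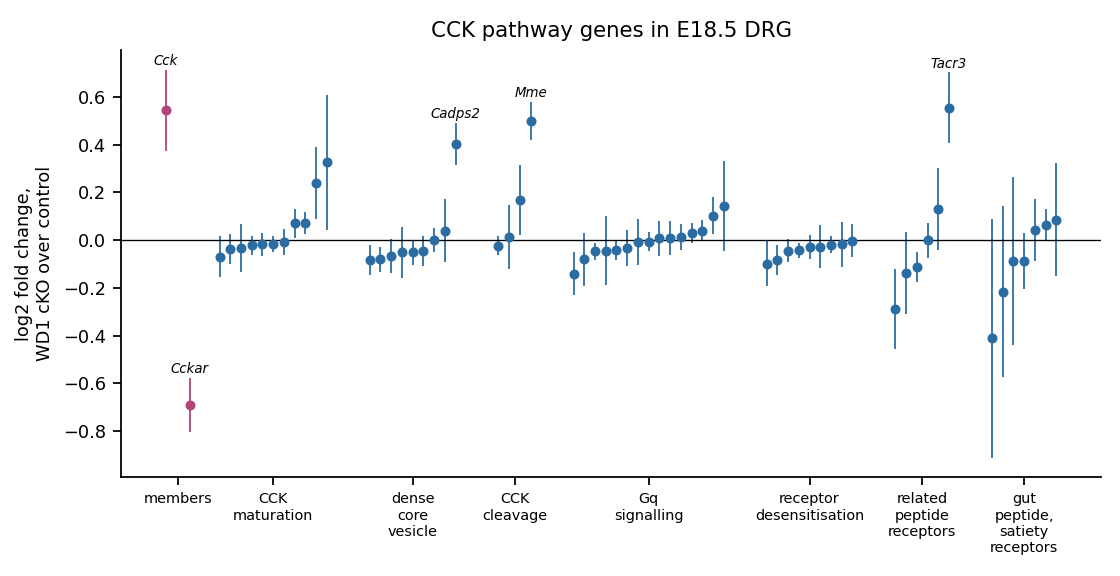
Log2 fold change (*WD1* cKO over control, linear axis) of *Cck*, *Cckar* and the tested genes of 7 pathway lists, with bars of 1 standard error from the fit across all genes (5 libraries per group). Points within a list are ordered by value and the line marks 0. *Mme*, *Cadps2* and *Tacr3* stand above the other pathway genes, at 0.50, 0.40 and 0.56, and *Cckar* lies at -0.69.

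Receptors for other peptides were examined beside *Cckar*. Of 8 peptide receptors of related sequence, 6 were tested, with 4 log2 fold changes below 0 and 2 above 0 and a median of -0.056. The lowest value was -0.29 (standard error 0.17) for *Hcrtr1*, an orexin receptor gene, and the highest was 0.56 for *Tacr3*, the receptor gene for neurokinin B. *Tacr3* was at 2.34, 2.42, 2.54, 3.09 and 2.72 CPM in control replicates 1 to 5 and at 3.49, 3.34, 3.08, 4.47 and 4.96 CPM in *WD1* cKO replicates 1 to 5. The groups overlapped by a small margin, since *WD1* cKO replicate 3 lay just below control replicate 4. The standard error was 0.15, with an unadjusted p of 0.00277 and an adjusted p of 0.935 in edgeR's quasi-likelihood test.

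Of 10 receptors for gut peptides and satiety signals, 7 were tested, with 4 log2 fold changes below 0 and 3 above 0 and a median of -0.086. They ranged from -0.41 (standard error 0.50) for *Sctr*, the secretin receptor gene, to 0.09 (standard error 0.24, and -0.02 without control replicate 5) for *Glp1r*, the receptor gene for glucagon-like peptide 1, and 0 had an unadjusted p under 0.05. The value of *Sctr* rested on control replicate 5, which was at 2.99 CPM while the other 4 controls were at 0.376 to 0.705 CPM and the *WD1* cKO libraries at 0.607 to 1.09 CPM, and without that library it was 0.49. *Npy2r*, the receptor gene for peptide YY that vagal neurons share with *Cckar*, was at 5.42 ± 2.75 CPM in control and 5.16 ± 2.28 CPM in *WD1* cKO embryos, and the leptin receptor gene *Lepr* at 27.5 ± 3.62 and 28.2 ± 5.76 CPM (SD, n = 5 per group).

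The nearest tested genes on either side of each member in the annotation's order were compared as well. Beside *Cckar* they were *Rbpj*, a Notch pathway transcription factor gene, with a log2 fold change of -0.005, and *Tbc1d19*, with 0.03. Beside *Cck* they were *Trak1*, with -0.02, and *Sec22c*, with 0.008. Beside *Cckbr* they were the pseudogene *Gm4972*, with -0.18 at under 1 CPM, and *Cavin3*, with 0.06. All 6 had an adjusted p of 1.00 in edgeR's quasi-likelihood test.

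The genes whose levels followed those of *Cckar* and *Cck* most closely over the 10 libraries were listed among 15336 genes with a mean of at least 1 CPM, by Pearson's r of log2 CPM. For *Cckar* they were *Asphd2* (r = 0.927), *Calb2* (0.927), *Dach1* (0.910), *Slc9a5* (0.909) and *Kcnj12* (0.908). *Calb2* encodes the calcium-binding protein calretinin and was at 4.10 CPM in control and 0.980 CPM in *WD1* cKO embryos. A difference between the groups enters these values, and once the group means were removed the 5 closest genes were *Tbc1d31* (r = 0.966), *Tmem106a* (0.947), *Dnase1l1* (0.940), *Tmem234* (0.920) and *Ginm1* (0.915).

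For *Cck* the 5 closest genes by level were *Gm26642* (r = 0.951), *Utp11* (0.949), *Zfp11* (0.898), *Timp4* (0.874) and *Tgds* (0.873). Within the groups they were *Utp11* (0.933), *Gm26642* (0.928), *Timp4* (0.918), *D030068K23Rik* (0.899) and *Gm15834* (0.897), with *Utp11*, *Gm26642* and *Timp4* named by both measures. *Cck* and *Cckar* themselves had r = -0.71 over the 10 libraries and r = -0.15 after the group means were removed. All libraries of a group share its mean, and these values are descriptions over 10 libraries without a test.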

How the data were processed

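Stranded mRNA libraries were made from E18.5 DRG, 5 of control and 5 of *WD1* cKO embryos. Per the labels and the study's methods, the authors aligned the reads to GRCm39 with STAR 2.7.8a and deposited the raw count of each gene from featureCounts 2.0.1, without normalization. The strand setting of the counting is not given in the sources used here, so counts of genes that overlap an antisense gene are uncertain. Groups were taken from the sample titles. Libraries of 1 group differed beyond sampling noise, with a chi-square of 4.35 to 15.0 per degree of freedom for each pair, and each was counted as 1 replicate.

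Symbols (52081 of 55414 identifiers), chromosomes, gene order and exon lengths (52133 identifiers, with at least 99.58% of the counts) came from GENCODE M21 on GRCm38, none of whose coordinates are given. Genes that reached 10 counts in 5 or more libraries were scaled by TMM and compared by the quasi-likelihood test of edgeR 4.0.16 in R 4.3.3, with Benjamini-Hochberg adjustment over 17490 genes. CPM values are TMM-scaled. Log2 CPM used a prior count of 1, and the exact permutation tests were two-sided (SciPy 1.17.1). Fold intervals used a t distribution with 8 degrees of freedom.

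The members and the gene lists were chosen with earlier results of these data known. Named were the members, *Dach1*, *Gast*, the ends of each pathway list and its genes past a threshold, marker genes, neighbours and the 5 most alike genes. *Pam*, *Tpst1*, *Gnaq*, *Npy2r* and *Lepr* were named in addition, after their values were seen, for their role. Some genes of the lists are not reported here by name. Marker lists were sensory neuron, spinal cord, placodal and sympathetic, blood, glia, connective tissue, muscle and endothelial genes. The median log2 fold changes of the last 4 were 0.02, 0.10, -0.65 and 0.02, with 0 genes at an adjusted p under 0.05 in edgeR's test, and those of the spinal cord, placodal and sympathetic and blood lists were -0.75 (2 of 10 genes tested), -0.97 and -0.94. Results were recomputed without the filter, with DESeq2's size factors, a mean count of at least 100, a replicate block, terms for replicate numbers or *Xist*, robust dispersions, the Wald test of DESeq2 1.42.0 (with its normal prior or none), each library left out, CPM in place of TPM and Spearman's rho. Leaving out both libraries numbered 3, and each library without the filter for *Cckbr*, were added after seeing the data.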

Additional observations from a re-analysis of the deposited data

Results flagged for a closer look

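*WD1* cKO replicate 5 lay far from the other 4 libraries of its group for *Cck*, at 6.26 CPM against 4.42 to 4.63 CPM. Its gap to the nearest library was 0.883 of the range of the group. It was the 1 group of 14 singled out, over 7 genes, and chance alone singles out about 1 in 20. Without it the log2 fold change of *Cck* was 0.43 in place of 0.54, with an adjusted p of 1.00 in edgeR's quasi-likelihood test. It was also the deepest library, with 34796562 counts.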

How the results depend on the processing

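The direction of the differences in *Cck*, *Cckar*, *Cckbr* and *Dach1* was the same under all alternatives that gave a value. For *Cckar* and *Dach1*, whose groups did not overlap, it could not change when libraries were left out. For *Cck* the log2 fold change lay between 0.13 (DESeq2 with its normal prior) and 0.73 (without both libraries numbered 3) over 20 alternatives, between 0.43 and 0.71 with 1 library left out, and its adjusted p between 0.414 and 1.00 in edgeR and DESeq2. For *Cckar* the normal prior, which shrinks fold changes, gave -0.23, the other alternatives gave -0.74 to -0.63, and at a mean count of at least 100 it was not tested. For *Cckbr*, leaving out 1 library gave -1.31 (control replicate 4) to -0.74 (control replicate 3) with exact permutation p from 0.0238 to 0.159, and edgeR without the filter gave -1.28 (adjusted p = 0.777). With 1 library left out, the median log2 fold change lay between -0.025 and 0.009 for CCK maturation, -0.083 and 0.004 for dense core vesicles, 0.037 and 0.126 for CCK cleavage, -0.038 and 0.021 for Gq signalling, -0.066 and -0.020 for receptor desensitisation, -0.075 and -0.038 for related peptide receptors, and -0.127 (control replicate 2) and 0.054 (control replicate 3) for gut peptide and satiety receptors. In control embryos the ratio of *Cckar* to *Cck* was 0.491 per length and 1.39 in CPM without length. With Spearman's rho, 1 of the 5 genes most alike *Cck* and 2 of the 5 most alike *Cckar* were named again.

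The background counts varied more. Genes with an adjusted p under 0.05 in edgeR's test numbered 7, and 3 to 6 with 1 library left out, 4 at a mean count of at least 100, 11 with a term for replicate numbers 1 to 3 against 4 and 5, 4 with *Xist* as a covariate and 19 in DESeq2 with or without its prior. Past the study's cut-off, 31 genes were lower and 36 higher in edgeR's test. These counts were 62 and 66 without the filter, 57 and 60 with the replicate number term, and 19 and 17 with DESeq2's normal prior. At a mean count of at least 100, 20 were lower, and with 1 library left out 27 to 41 were lower and 24 to 55 higher, the last without *WD1* cKO replicate 1.

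The libraries share only a replicate number. The correlation of the deviations of same-numbered libraries was 0.329, 0.0404, 0.320, 0.354 and 0.390, and not every library correlated best with its own number. With the replicate block, 68 genes were lower and 65 higher past the cut-off, and the log2 fold change was 0.55 for *Cck* (adjusted p = 0.591 in edgeR's test) and -0.68 for *Cckar*. At the depth of these libraries, *Cckbr* and *Gast* are limited by counting error.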
